A study of Mus musculus with 6 samples.

Results

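The genes described here encode the enzymes that build sterols and fatty acids, together with the regulators of sterol synthesis. They were taken by symbol from a list of 31 genes, 20 of the sterol branch and 11 of the fatty acid branch, out of 49585 genes in each table. All 31 passed the filter on low counts that left 14020 genes. RNA was sequenced from mGB2, a mouse glioblastoma line that its labels call glioblastoma stem cells, in 3 libraries of genotype Bcat1-KO and 3 of genotype Control. Both groups were untreated. They grew attached to plates coated with extracellular matrix, in a DMEM:F12 medium with N2, B27, EGF and FGF, until they were confluent. Bcat1 encodes the cytosolic transaminase of the branched-chain amino acids. The labels do not say how the knockout was made, whether it is 1 clone or a pool, or whether replicates came from separate cultures, and a p-value therefore speaks only of the spread among these libraries, which can be technical. In bulk RNA, fewer cells of a type and less RNA per cell cannot be told apart.

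Both branches start from cytosolic acetyl-CoA. In the sterol branch it is joined into mevalonate, then into isoprenoid units, squalene and, after ring closure, cholesterol. In the fatty acid branch it is carboxylated, built into palmitate by fatty acid synthase, and then lengthened and desaturated. SREBP transcription factors switch on genes of both branches when the endoplasmic reticulum is poor in sterol, and the Insig proteins hold them back when sterol is plentiful. In the brain cholesterol is made locally, largely by glia.

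The libraries held 29543157 to 37800648 strand-matched counts, and mitochondrial genes took 1.31% to 2.28% of them. Bcat1 itself was present in the knockout libraries, at 155, 176 and 173 CPM (counts scaled to library size, with TMM factors between libraries) against 214, 223 and 232 CPM in the control, a log2 fold change of -0.41 (with SE 0.07 and edgeR adjusted p = 0.000355). Of 6 neural stem and glioma markers 5 were higher in the knockout and 0 lower. The summed level of the 6 was 2061 to 2249 CPM against 1310 to 1390 CPM. Sox2 stood at 287 to 375 CPM against 131 to 140 CPM, and Olig2 at 497 to 612 CPM against 256 to 276 CPM. The largest log2 fold changes were 7.83 for Prom1, at a low 0.803 to 0.853 CPM against 0, and 4.9 for Fabp7. Fabp7 stood at 185 to 192 CPM against 5.51 to 7.53 CPM. Nes did not pass. Among the higher markers Vim had a log2 fold change of 0.29 that lost its call once Bcat1-KO replicate 1 was left out (0.15, adjusted p = 0.0813, edgeR). Markers of other cells were low in both groups. The 5 fibroblast markers, of which 2 were abundant enough to test and 1 was lower, summed to 24.4 to 28.4 CPM in the knockout and 37.6 to 41.6 CPM in the control, nearly all of it Pdgfra and Col1a1. The 4 endothelial markers summed to under 1 CPM in every library, and of the 2 abundant enough to test Tek was lower (log2 fold change -1.93, adjusted p = 0.0048, edgeR). The 5 immune markers summed to 2.55 to 4.26 CPM, and the 1 that could be tested, Cd68, did not pass. Prom1 and Kdr were at 0 in every control library, and Aif1 and Tyrobp in every knockout library. Bcat1-KO replicate 1 stood apart from the other knockout libraries. Its counts differed from those of replicates 2 and 3 with a chi-square per gene of 31.5 and 33.0, against 12.6 between replicates 2 and 3. Control replicate 1 also stood apart, at lower values of 12.7 and 11.9, against 3.96 between control replicates 2 and 3. The value without Bcat1-KO replicate 1 is given too where leaving that library out ended the call of a gene named here. It is also given where a called log2 fold change moved by over 1.5 times.

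The knockout had 11 of the 20 sterol genes higher and 0 lower than the control, and 6 of the 11 fatty acid genes higher and 2 lower. The test was edgeR's quasi-likelihood test, called at a Benjamini-Hochberg adjusted p under 0.05 over all genes tested. Among all genes tested, 62.3% changed, 32.0% higher and 30.3% lower. The share of called members in either direction, 61.3%, was close to that of all genes, with 17 of the members higher and 2 lower. The median log2 fold change was 0.28 in the sterol branch and 0.27 in the fatty acid branch, against 0.01 for all genes. Without Bcat1-KO replicate 1 these medians were 0.22, 0.19 and -0.01. The sterol branch then had 11 genes higher and 3 lower, and the fatty acid branch 6 higher and 3 lower. Over all genes, 4589 were then higher and 4741 lower. The 2 groups' library values were apart, without overlap, for 12 sterol genes and 8 fatty acid genes, and for 67.7% of all genes. A change beyond 1.5-fold passed a test of its own for 4 sterol genes (Acat2, Insig1, Tm7sf2 and Dhcr7) and 2 fatty acid genes (Acss2 and Elovl5), all higher, against 11.2% of all genes higher in that test. Summed over the 20 sterol genes, the level was 2577, 1936 and 2007 CPM in the knockout libraries and 1764, 1714 and 1718 CPM in the control libraries.

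**Figure D1:**
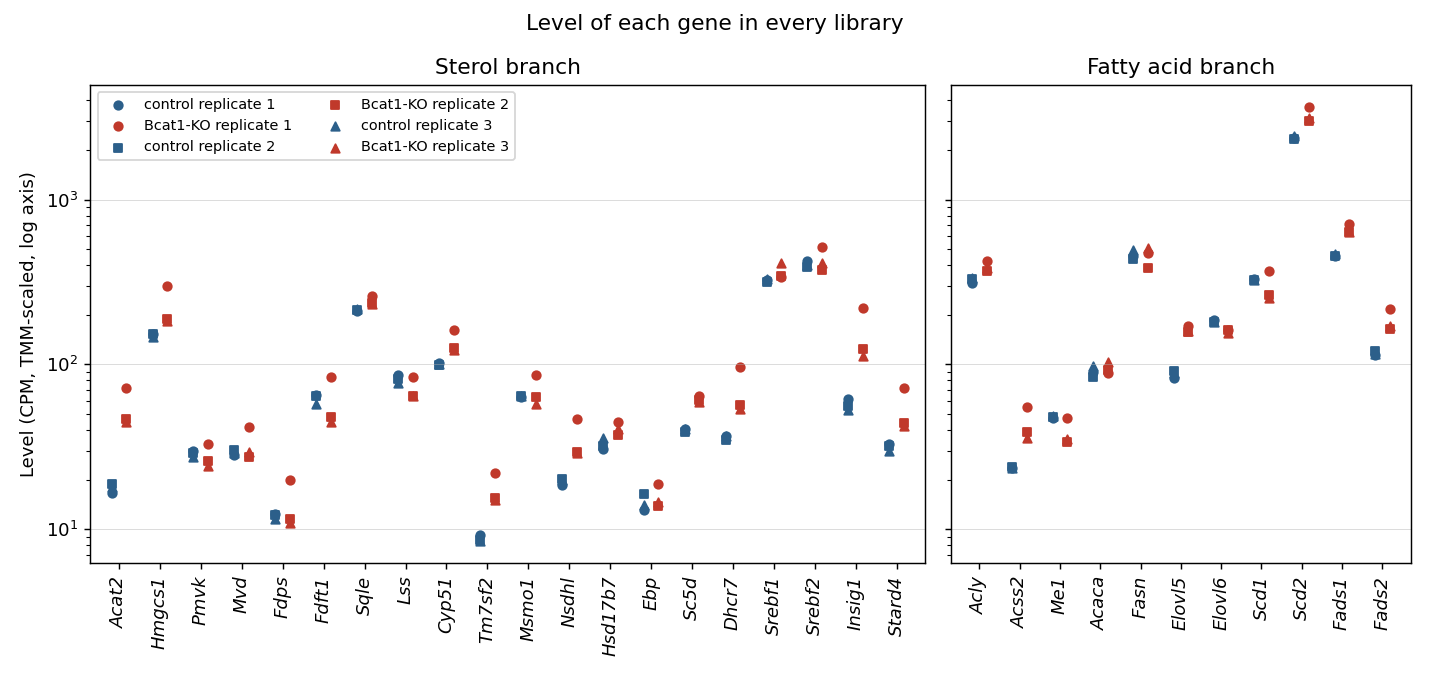
Level of each gene (vertical axis, CPM on a log scale) in the 3 control libraries (blue) and the 3 Bcat1-KO libraries (red), sterol branch at left and fatty acid branch at right; the marker shape gives the replicate. For Acat2, Insig1 and Elovl5 all knockout points lie above all control points, and the circle of Bcat1-KO replicate 1 is the highest red point for 19 of 20 sterol genes.

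Promoter windows of 300 bases (250 before and 50 after the start, RefSeq, GRCm38.p6, which is mm10) were found for 24 of the 31 genes. They were searched on both strands for the NF-Y box CCAAT, the GC box GGGCGG, the E-box CACGTG and the core TCACNCCAC of the sterol regulatory element, and matches of different motifs did not overlap. NF-Y and Sp1, which binds GC boxes, are known partners of SREBP. An NF-Y box lay in 15 of 16 sterol genes with a window (93.8%) and 5 of 8 fatty acid genes, against 41.1% of all genes. Here all genes are the 27025 with a window, more than the 14020 tested, and the tested genes were not counted apart. Per window, it was present in 76.2% of sterol windows and 37.4% of all windows. A GC box lay in 15 of the 16 sterol genes and 4 of the 8 fatty acid genes, against 38.2% of all genes, and in 35.7% of all windows. An E-box lay in 4 sterol genes (Dhcr7, Hsd17b7, Insig1 and Sc5d) and in Elovl5, against 8.09% of all genes and 7.15% of all windows. For Dhcr7 it lay in a window other than the one with the NF-Y boxes. Genes in whose windows no E-box was found, such as Hmgcs1 and Acat2, rose as well. The sterol element core lay in 1 window, that of Hmgcs1, against 1.24% of all windows. These are matches of letters, not shown binding sites, and both the genes that rose and those that did not pass, such as Lss and Mvd, hold NF-Y boxes.

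The windows of 4 genes that rose are shown because they differ in these motifs. Capitals mark the NF-Y box (also read as ATTGG on the other strand), the E-box and the sterol element core, and each is written 5′ to 3′ along the gene. Hmgcs1 (chr13:119690101-119690400, plus strand) holds 4 NF-Y boxes and the sterol element core, Insig1 (chr5:28071162-28071461, plus strand) an E-box and 1 NF-Y box, and Elovl5 (chr9:77917115-77917414, plus strand) an E-box and 2 NF-Y boxes. Acat2 (chr17:12960676-12960975, minus strand), the gene with the largest change, is the sterol gene in whose window no NF-Y box was found.
Hmgcs1: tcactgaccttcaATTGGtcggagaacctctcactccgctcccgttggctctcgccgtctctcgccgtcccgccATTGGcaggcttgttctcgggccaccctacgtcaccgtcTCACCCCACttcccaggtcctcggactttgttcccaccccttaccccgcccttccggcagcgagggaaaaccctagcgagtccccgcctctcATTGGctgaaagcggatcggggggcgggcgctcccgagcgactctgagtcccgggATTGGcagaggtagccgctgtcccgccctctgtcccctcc
Insig1: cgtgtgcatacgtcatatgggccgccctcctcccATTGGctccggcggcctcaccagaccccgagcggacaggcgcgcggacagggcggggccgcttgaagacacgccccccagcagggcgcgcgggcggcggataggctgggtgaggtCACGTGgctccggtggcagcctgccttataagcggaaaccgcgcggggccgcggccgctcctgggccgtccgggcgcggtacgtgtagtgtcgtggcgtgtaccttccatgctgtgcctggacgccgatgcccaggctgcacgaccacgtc
Elovl5: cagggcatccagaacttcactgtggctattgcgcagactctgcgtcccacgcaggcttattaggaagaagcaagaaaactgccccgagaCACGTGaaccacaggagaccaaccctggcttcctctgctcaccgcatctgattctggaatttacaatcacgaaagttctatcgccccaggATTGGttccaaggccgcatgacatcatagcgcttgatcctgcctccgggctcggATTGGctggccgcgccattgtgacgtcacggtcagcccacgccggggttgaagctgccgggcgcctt
Acat2: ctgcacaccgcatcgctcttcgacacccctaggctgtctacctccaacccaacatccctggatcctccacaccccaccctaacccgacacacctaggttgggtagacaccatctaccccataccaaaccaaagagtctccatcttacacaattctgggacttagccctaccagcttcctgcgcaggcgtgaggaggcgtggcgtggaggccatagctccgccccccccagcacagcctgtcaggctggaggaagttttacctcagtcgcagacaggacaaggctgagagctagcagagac

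The mevalonate steps were uneven, with 2 of 5 genes higher and 0 lower. Acat2, the cytosolic thiolase that starts the pathway (ENSMUSG00000023832.13, chromosome 17 from 12942890 to 12960747, mm10), stood at 72.3, 46.6 and 44.8 CPM in the knockout and at 16.7, 18.7 and 18.1 CPM in the control. Every knockout library lay well above every control library, and its log2 fold change of 1.61 (with SE 0.16 and edgeR adjusted p = 3.8e-06) was the largest of the 31 genes. Without Bcat1-KO replicate 1 it was 1.34 (adjusted p = 1.31e-09). Hmgcs1, the cytosolic HMG-CoA synthase (ENSMUSG00000093930.1, chromosome 13 from 119690462 to 119708086), held 297, 188 and 184 CPM in the knockout and 153, 154 and 147 CPM in the control. The groups did not overlap (log2 fold change 0.56, with SE 0.15 and edgeR adjusted p = 0.00656), but the change was 0.28 without Bcat1-KO replicate 1 (adjusted p = 0.000731).

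The 3 later enzymes of this stretch, phosphomevalonate kinase (Pmvk), mevalonate diphosphate decarboxylase (Mvd) and farnesyl diphosphate synthase (Fdps), did not pass the test, with log2 fold changes of -0.05, 0.17 and 0.23. In each, Bcat1-KO replicate 1 was above all control libraries while the other 2 knockout libraries were near or below them. Fdps stood at 19.95, 11.6 and 10.9 CPM in knockout libraries and at 12.4, 12.3 and 11.5 CPM in control libraries. Fdps has pseudogenes, and counting can divide reads between the gene and these, which was not tested. Without Bcat1-KO replicate 1, Pmvk passed as lower, with a log2 fold change of -0.21 (adjusted p = 0.0171, edgeR).

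From squalene to cholesterol, 7 of 11 genes were higher and 0 lower. The rise was seen in Sqle, Cyp51, Tm7sf2, Nsdhl, Hsd17b7, Sc5d and Dhcr7. Dhcr7, the reductase that forms cholesterol from its last precursor (ENSMUSG00000058454.15, chromosome 7 from 143823145 to 143848410), held 96.8, 57.0 and 53.6 CPM in the knockout and 36.6, 34.7 and 36.6 CPM in the control. All knockout libraries were above the control, with replicate 1 far above the others (log2 fold change 0.94, with SE 0.18 and edgeR adjusted p = 0.000717, or 0.60 without it). Tm7sf2, a sterol reductase, rose from 8.74 ± 0.377 to 17.5 ± 3.86 CPM (mean ± SD, n = 3, log2 fold change 1.0, with SE 0.14 and edgeR adjusted p = 9.3e-05). Nsdhl, a dehydrogenase that helps strip methyl groups from the sterol ring, rose from 19.5 ± 0.868 to 35.1 ± 10.1 CPM. Its log2 fold change was 0.85, or 0.57 without Bcat1-KO replicate 1.

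Sc5d, a sterol desaturase, was the most even of these genes, with 63.9, 60.9 and 59.4 CPM in the knockout and 40.7, 39.1 and 40.3 CPM in the control (log2 fold change 0.62, with SE 0.06 and edgeR adjusted p = 5.71e-06). Here Bcat1-KO replicate 1 was close to its 2 companions, and the change without it was 0.57. Cyp51, the lanosterol demethylase, rose by a log2 fold change of 0.44, from 101 ± 1.46 to 137 ± 21.7 CPM, or by 0.29 without replicate 1, and Hsd17b7, a ketosterol reductase, by 0.32. The change of Sqle, the squalene epoxidase and a rate-controlling enzyme, was the smallest that passed, at 0.18 (with SE 0.07 and edgeR adjusted p = 0.0319). Its call was lost without Bcat1-KO replicate 1 (0.11, adjusted p = 0.0903) and without any 1 of the control libraries.

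The genes of squalene synthesis and ring closure did not pass the test with all libraries. Fdft1, the squalene synthase that commits isoprenoids to sterols, held 83.5, 48.0 and 44.7 CPM in knockout libraries and 64.9, 63.9 and 57.9 CPM in control libraries. Replicate 1 of the knockout was above and replicates 2 and 3 below every control library, so that the log2 fold change was -0.08 with all libraries (adjusted p = 0.711, edgeR) and -0.45 without replicate 1 (adjusted p = 7.62e-05). Lss, the lanosterol synthase that closes the ring, held 83.3, 64.4 and 64.2 CPM against 86.8, 81.9 and 77.6 CPM (log2 fold change -0.22, adjusted p = 0.0726, edgeR), and passed as lower without replicate 1, at -0.37 (adjusted p = 0.000181). Msmo1, the methylsterol oxidase, and Ebp, the sterol isomerase, did not pass, with log2 fold changes of 0.10 and 0.12 that were -0.11 and -0.04 without replicate 1.

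Of the 4 regulators and transport genes, 2 were higher and 0 lower. Insig1, which retains SREBP in the endoplasmic reticulum and is itself an SREBP target (ENSMUSG00000045294.11, chromosome 5 from 28071363 to 28078662), held 219, 125 and 112 CPM in the knockout and 62.1, 55.6 and 53.1 CPM in the control. The groups were far apart, and the knockout libraries spread more widely than for any other of the 31 genes, with a highest over lowest ratio of 1.96. The log2 fold change was 1.41 (with SE 0.20 and edgeR adjusted p = 7.77e-05), or 1.03 without Bcat1-KO replicate 1 (adjusted p = 4.52e-08). Stard4, a sterol transfer protein, rose from 31.6 ± 1.59 to 52.8 ± 16.8 CPM (log2 fold change 0.74, or 0.43 without replicate 1). The factors themselves moved less. Srebf2, the main activator of sterol genes, held 514, 374 and 411 CPM against 427, 391.7 and 402 CPM, with overlapping groups and a log2 fold change of 0.09 (adjusted p = 0.483, edgeR). Srebf1, whose products act more on fatty acid genes, held 340, 344 and 414 CPM against 323, 316 and 329 CPM. All knockout libraries were above the control, yet the change of 0.18 did not pass (adjusted p = 0.0771, edgeR), whereas it did at 0.21 without replicate 1 (adjusted p = 0.0244). The mRNA does not show how much SREBP is cleaved and active.

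**Figure D2:**
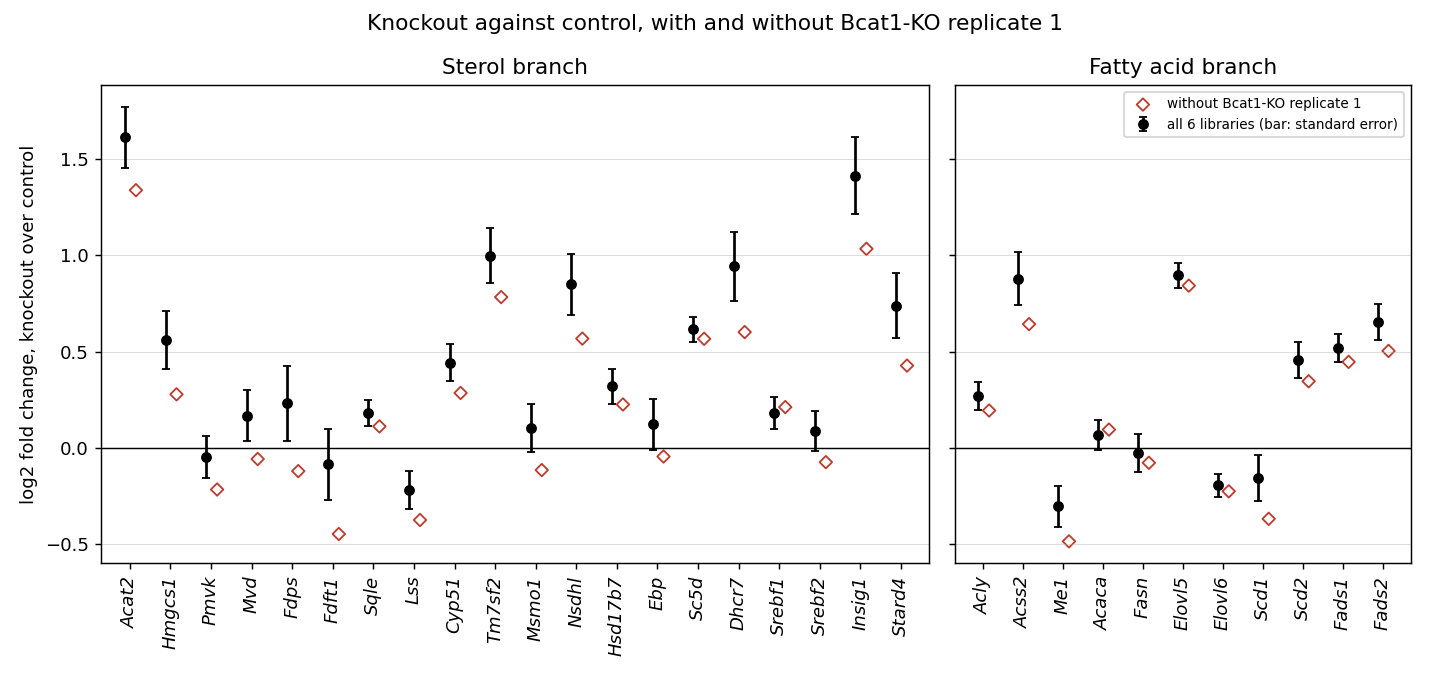
Log2 fold change of knockout over control (vertical axis) for each gene with all 6 libraries (black, bar is 1 standard error) and without Bcat1-KO replicate 1 (open red diamonds). Without that library the values of Mvd, Fdps, Msmo1, Ebp and Srebf2 fall from above to below 0, and those of Acat2, Insig1, Tm7sf2 and Elovl5 stay well above it.

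In the fatty acid branch all 3 supply genes, both elongases and 3 of 4 desaturases changed, and the 2 core synthesis genes did not pass the test. Acly, which releases acetyl-CoA from citrate, rose from 326 ± 11.1 to 393 ± 28.2 CPM (log2 fold change 0.27, with SE 0.07 and edgeR adjusted p = 0.00695). Acss2, which makes acetyl-CoA from acetate, held 55.4, 39.1 and 35.5 CPM in the knockout and 23.7, 23.7 and 23.4 CPM in the control. Its control libraries nearly coincided, and all knockout libraries were above them (log2 fold change 0.88, with SE 0.14 and edgeR adjusted p = 0.000166, or 0.64 without Bcat1-KO replicate 1). Me1, the cytosolic malic enzyme that yields NADPH, fell to 47.0, 33.8 and 35.5 CPM, from 47.0, 47.7 and 48.6 CPM in the control. Knockout replicate 1 was at the level of the lowest control library. Its change was -0.30 on the log2 scale (with SE 0.11 and edgeR adjusted p = 0.029), and it was -0.48 without replicate 1 (adjusted p = 1.26e-05). Without knockout replicate 2 or 3, or any 1 of the control libraries, it did not pass.

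Acaca, the acetyl-CoA carboxylase that makes malonyl-CoA, and Fasn, the synthase that uses it, had overlapping groups and log2 fold changes of 0.07 (adjusted p = 0.468) and -0.03 (adjusted p = 0.826, edgeR). Fasn held 474, 385 and 505 CPM against 457, 436 and 497 CPM. The elongases split. Elovl5, which lengthens polyunsaturated chains, rose from 82.9, 90.6 and 88.9 CPM to 170, 158 and 160 CPM, with tight groups far apart (log2 fold change 0.90, with SE 0.07 and edgeR adjusted p = 2.56e-07). Elovl6, which lengthens palmitate, fell from 183 ± 2.73 to 160 ± 3.49 CPM (log2 fold change -0.19, with SE 0.06 and edgeR adjusted p = 0.0142), again with no overlap. For both the value without knockout replicate 1, 0.84 and -0.22, differed little.

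Among the desaturases 3 of 4 were higher. Scd2, the stearoyl-CoA desaturase typical of brain, was by far the most abundant of the 31 genes per length, at 1375 ± 42.0 TPM (counts per length, scaled within a library) in the control and 1956 TPM in the knockout, and took 0.23% to 0.24% of all counts in the control libraries and 0.304% to 0.371% in the knockout libraries. It held 3663, 2987 and 3133 CPM against 2360, 2325 and 2440 CPM (log2 fold change 0.46, with SE 0.10 and edgeR adjusted p = 0.00132). Its neighbour Scd1 did not follow: with 367, 262 and 252 CPM in the knockout and 329, 327 and 326 CPM in the control it had a log2 fold change of -0.15 (adjusted p = 0.284, edgeR). Without knockout replicate 1 it passed as lower, at -0.37 (adjusted p = 9.07e-05). The sequences of Scd1 and Scd2 are similar, so counting can divide some reads between them, which was not tested. Fads1 and Fads2, the desaturases of polyunsaturated chains, lie beside each other on chromosome 19 and rose by log2 fold changes of 0.52 and 0.65, from 460 ± 5.81 to 659 ± 42.0 CPM and from 117 ± 3.74 to 184 ± 27.7 CPM (adjusted p = 6.56e-05 and 9.22e-05, edgeR). After Scd2, the highest levels per length in the control were those of Fads1 (420 ± 6.59 TPM), Srebf2 (257 ± 13.5 TPM) and Fads2 (244 ± 5.68 TPM). Srebf2 and Fads2 differed by about the spread of Srebf2. The lowest were those of Acss2 (7.33 ± 0.0634 TPM) and Tm7sf2 (7.92 ± 0.383 TPM).

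The knockout libraries differed from each other more in the sterol branch than genes in general did. For the median sterol gene the highest knockout library held 1.49 times the lowest, against 1.23 for the fatty acid genes and 1.19 for all genes. Among the control libraries these ratios were 1.09, 1.05 and 1.12. The ratio was larger among the knockout than among the control libraries for 20 of 20 sterol genes and 10 of 11 fatty acid genes, against 66.0% of all genes. Bcat1-KO replicate 1 was the highest knockout library for 19 of 20 sterol genes (Srebf1 being the exception) and 9 of 11 fatty acid genes (not Acaca and Fasn), against 40.8% of all genes. The lowest library was replicate 3 for 15 sterol genes, against 30.5% of all genes. Over all genes, replicate 1 was also the lowest knockout library for 38.9%. The median deviation of replicate 1 from the mean of the knockout libraries was 0.35 on the log2 scale for the sterol genes, 0.11 for the fatty acid genes and 0.00 for all genes. Replicates 2 and 3 were alike, at -0.18 and -0.19 for the sterol genes. The largest deviations of replicate 1 were those of Insig1 (0.59), Fdft1 (0.57), Fdps (0.55) and Dhcr7 (0.54), and the smallest positive ones in the sterol branch those of Sc5d (0.06) and Sqle (0.10). With 1 library standing apart from 2, no test of this difference was made. With the genes tested divided into 4 classes by length, the median deviation of replicate 1 from a gene's mean over all libraries was 0.06 in the shortest class and -0.04 in the longest. Its mitochondrial share, 1.56%, lay between those of its companions. The part of gene length in the spread was not tested. A fit of knockout against control with a gene length offset kept the higher call of all 17 genes. That fit does not measure the spread among the knockout libraries.

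**Figure D3:**
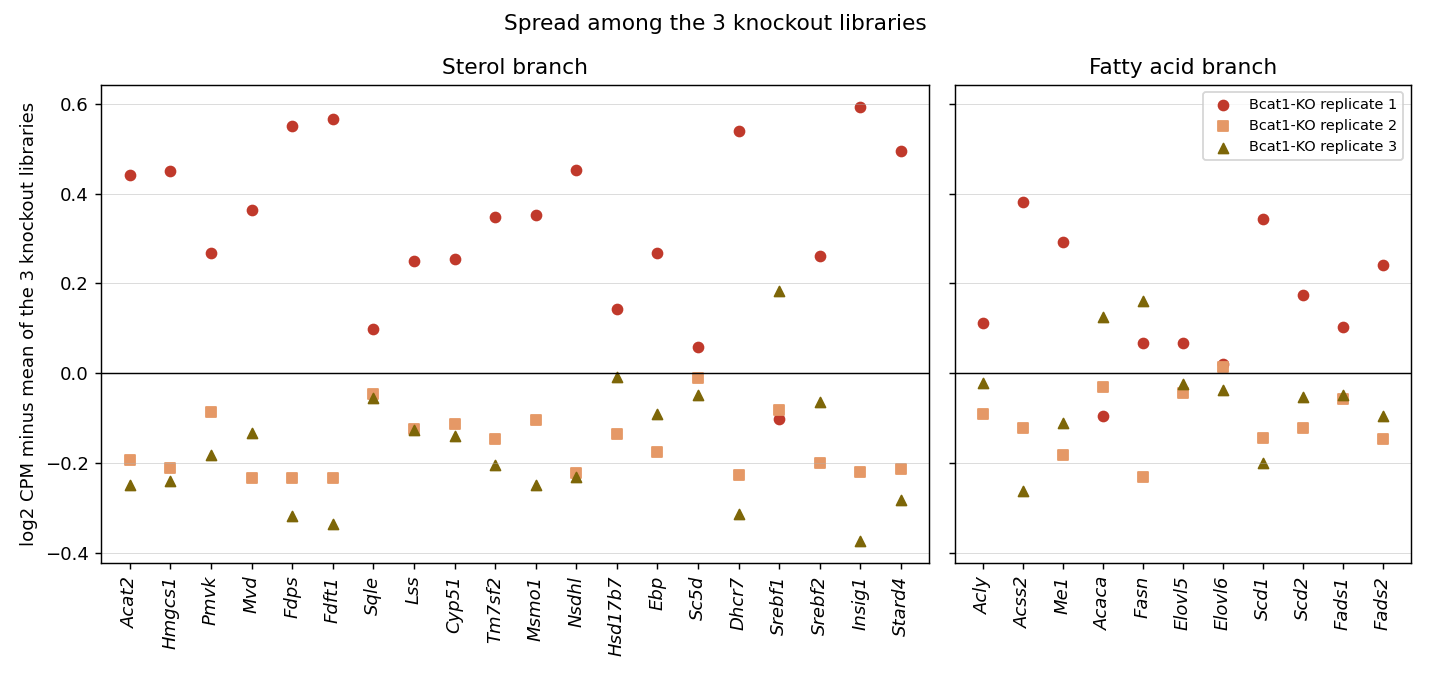
Deviation of each knockout library from the mean of the 3 knockout libraries (vertical axis, log2 CPM) for each gene. Bcat1-KO replicate 1 (red circles) lies above 0 for 19 of 20 sterol genes, up to 0.59 for Insig1, with replicates 2 and 3 together below 0, and the fatty acid genes spread less.

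Fold changes in these cells also run along chromosomes. Several sterol genes lie in stretches that were lower as a whole, and other genes of both branches in stretches that were higher. The median log2 fold change of the 51 tested genes around each gene was below -0.3 for 6 of 20 sterol genes and 0 of 11 fatty acid genes, against 11.7% of all genes. That limit was chosen after the values were seen. The 6 genes were Fdps (-0.56), Lss (-0.55), Mvd (-0.48), Pmvk (-0.39), Msmo1 (-0.35) and Fdft1 (-0.33), none of which passed the main test. Since these genes were picked for low neighbours, taking the median away raises each of them by construction, and their differences from it are given with no test. Those were 0.79 for Fdps, 0.65 for Mvd, 0.45 for Msmo1, 0.35 for Pmvk, 0.33 for Lss and 0.25 for Fdft1. Without Bcat1-KO replicate 1 they were 0.39, 0.40, 0.23, 0.16, 0.17 and -0.069. Fdps and Pmvk lie near each other on chromosome 3 and share neighbours.

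With the local median removed from every gene, 14 sterol genes were higher and 0 lower. Of those 14, 5 were among the genes just named. Over all 14020 genes tested, 3929 were higher and 3870 lower in that fit. The calls of Sqle (0.01, adjusted p = 0.943, edgeR) and Cyp51 (0.18, adjusted p = 0.134) were lost. Without Bcat1-KO replicate 1 as well, 12 sterol genes were higher and 1, Srebf2, was lower (-0.23, adjusted p = 0.0107, edgeR), a setting added after the values were seen. In the fatty acid branch 6 genes were higher and 2 lower with the local median removed, and 6 and 3 without replicate 1 as well. Over all genes tested, 4198 were higher and 4152 lower without replicate 1 as well. With all libraries and the local median removed, Me1 changed by -0.76 and Elovl6 by -0.42. Insig1, Elovl5 and Sc5d lie in stretches that were higher, with local medians of 0.40, 0.32 and 0.31. With those medians removed they kept their calls but changed less, by 1.01, 0.57 and 0.31, against 1.41, 0.90 and 0.62 in the main fit. The labels do not report copy number, and its part in these stretches was not tested.

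**Figure D4:**
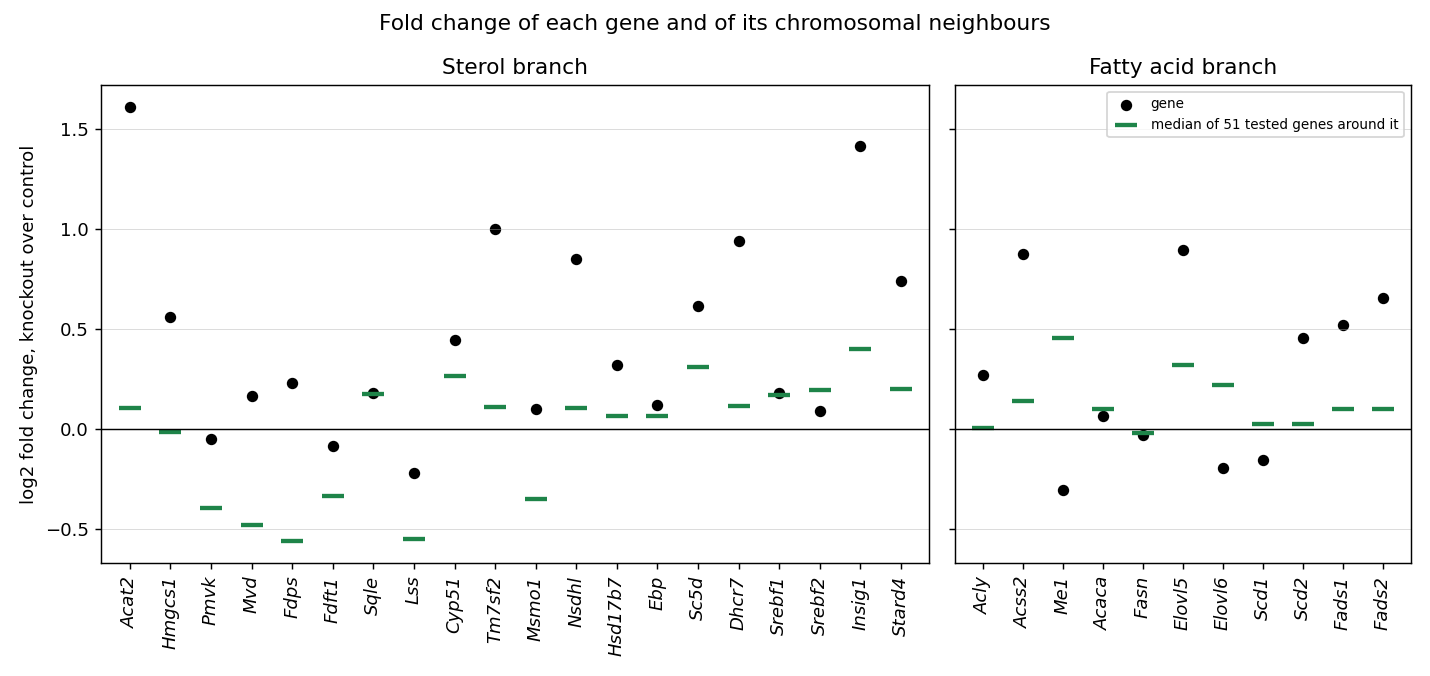
Log2 fold change of knockout over control (vertical axis) of each gene (black points) and the median of the 51 tested genes centred on it along its chromosome (green bars). Fdps, Lss, Mvd, Pmvk, Msmo1 and Fdft1 have bars from -0.56 to -0.33 and points above them, whereas the bars of the fatty acid genes lie between -0.02 and 0.45.

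Other genes of the same metabolism were taken from 7 further lists. Their counts stand beside 32.0% higher and 30.3% lower among all genes tested. Of 7 genes listed as other sterol enzymes, 6 were higher and 0 lower. The 7 include Acat1, whose thiolase is mitochondrial, whereas the sterol branch starts from cytosolic acetyl-CoA. The median log2 fold change of the 7 was 0.50, and 0.25 without Bcat1-KO replicate 1. That library was the highest of the knockout for 6 of the 7. The mitochondrial thiolase gene Acat1 rose from 130 ± 3.49 to 255 ± 24.8 CPM, the isoprenoid isomerase gene Idi1 from 8.37 ± 0.977 to 14.8 ± 3.47 CPM and the mevalonate kinase gene Mvk from 14.8 ± 1.21 to 20.9 ± 5.33 CPM. For Mvk the log2 fold change was 0.50 with all libraries and 0.25 without replicate 1, and for Idi1 0.82 and 0.60. Of 7 genes that process or degrade SREBP, 3 were higher and 2 lower. Scap, the SREBP escort, rose from 70.6 ± 2.96 to 102 ± 5.96 CPM and Insig2 from 17.97 ± 0.648 to 23.1 ± 1.76 CPM. Fbxw7, a ubiquitin ligase subunit that targets nuclear SREBP, rose by a log2 fold change of 0.26. Mbtps1, the protease of the first SREBP cut, fell from 257 ± 6.12 to 177 ± 7.67 CPM, but its neighbours were lower too (median -0.45), and with their median removed it did not pass (-0.095, adjusted p = 0.228, edgeR).

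Among the genes of sterol uptake and efflux, 10 of 12 were abundant enough to test, and of these 5 were lower and 2 higher. Mylip, a ubiquitin ligase, fell from 37.7 ± 2.33 to 20.5 ± 1.48 CPM, the apolipoprotein E receptor gene Lrp1 from 168 ± 19.2 to 82.2 ± 13.5 CPM and the cholesterol exporter gene Abca1 from 7.39 ± 0.857 to 4.94 ± 0.81 CPM. With the local median removed Abca1 did not pass (-0.31, adjusted p = 0.103, edgeR). Of 10 genes of sterol traffic and esters, 5 were higher and 3 lower. Soat1, which esterifies cholesterol for storage, fell from 283 ± 8.48 to 118 ± 7.77 CPM. Gramd1b, which carries sterol from the plasma membrane to the endoplasmic reticulum, rose from 8.03 ± 0.229 to 30.7 ± 3.06 CPM. Of the pair that exports cholesterol from lysosomes, Npc1 rose by a log2 fold change of 0.65 and Npc2 changed by -0.69. With the local median removed Npc2 did not pass (-0.15, adjusted p = 0.116, edgeR).

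Of 17 other tested fatty acid synthesis genes, 7 were higher and 6 lower. Of the 5 elongase genes in this list, 3 rose, Elovl2 from 0.548 ± 0.0864 to 16.5 ± 1.62 CPM, Elovl4 from 10.1 ± 1.01 to 30.03 ± 2.24 CPM and Elovl7 from 1.42 ± 0.258 to 4.45 ± 0.684 CPM. Elovl1 did not pass (log2 fold change 0.08, adjusted p = 0.366, edgeR) and Elovl3 was too low to test. The desaturase family gene Fads6 fell from 3.74 ± 0.284 to 1.35 ± 0.359 CPM. Of 11 acyl-CoA and glycerolipid genes, 4 were higher and 4 lower. Among the acyl-CoA synthetases, Acsl3 and Acsl4 rose by log2 fold changes of 0.70 and 0.46, and Acsl1 fell by 0.94. The change of Acsl6, at about 1 CPM and with overlapping groups, was -0.76 (adjusted p = 0.0485, edgeR) and lost its call once Bcat1-KO replicate 1 was left out (-0.53, adjusted p = 0.103). With the local median removed Acsl4 did not pass (0.12, adjusted p = 0.219, edgeR). Of 6 genes of NADPH supply, 5 were higher and 0 lower. Me2, Pgd, Idh1 and Mthfd1 rose by 0.50, 0.46, 0.45 and 0.20 on the log2 scale, in contrast to Me1, and Idh1 had its highest knockout value in replicate 1, with 107, 71.3 and 69.3 CPM. Without that library its change was 0.20. With the local median removed Mthfd1 did not pass (-0.069, adjusted p = 0.368, edgeR).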

How the data were processed

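The libraries were stranded and made with the Illumina TruSeq kit for mRNA, per the labels' protocols. The submitters' processing notes name STAR 2.5.3a, featureCounts and mm10, and no annotation release is named in the sources used here. The deposited counts are raw reads per gene on the reverse strand, used for the main test, and without regard to strand. The authors also deposited TPM, which corrects for gene length within a library and served for levels between genes and for an alternative.

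Genes were kept with the expression filter of edgeR 4.0.16 (R 4.3.3), which removed 0.0511% of counts. Counts were scaled by TMM, and knockout was compared with control by the quasi-likelihood test with no covariate and Benjamini-Hochberg adjustment at 0.05. A floor of 3 counts is 0.0794 to 0.102 CPM in 1 library, and each of the 31 genes held over 8 CPM in every library, so depth limits little here. The genes, lists and tests were chosen with earlier results of these data known. Named genes were the 31, Bcat1, the markers, and up to 4 genes of each further list that passed the test, by size of change, where the mean log2 CPM was at least 0. Some genes that this rule names are not reported here. Itgam, listed under more than 1 gene ID, was left out of the markers. Alternatives were 2 other scalings, no filter, DESeq2 1.42.0, limma-voom and limma-trend on TPM (limma 3.58.1), unstranded counts, a 1.5-fold test, a block for replicate number, an offset for gene length, both of these, removal of the local median, leaving out each library, and, added after the values were seen, the local median removed without Bcat1-KO replicate 1. On simulated counts (13492 genes) the test found 42% of 50 genes set to differ by 1.25-fold and 88% of 50 at 1.5-fold. It found 100% at 2-fold and 100% at 4-fold, and 8.33% of its calls were false. In the data 62.3% of genes tested were called, far more than were set to differ here, so these shares may not carry over.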

Additional observations from a re-analysis of the deposited data

How the results depend on the processing

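The count of sterol genes higher in the knockout, 11, stayed between 9 and 14 under all settings but the 1.5-fold test, where it was 4. With a 1.5-fold test 2 fatty acid genes were higher and 0 lower, and over all genes 1564 were higher and 1481 lower. Sterol genes lower numbered 0, but 1 (Lss) with no filter on low counts and 1 (Lss) with a replicate block, and 0 to 3 when 1 library was left out, 3 without Bcat1-KO replicate 1, and 1 (Srebf2) with the local median removed as well, a setting added after the values were seen. Fatty acid genes lower numbered 2, but 1 with limma-trend on log2(TPM + 1), on log2(TPM + 0.1) and with no filter on TPM, and 1 to 3 when 1 library was left out. The same replicate numbers did not pair the libraries (correlations of deviations of -0.051, -0.073 and 0.156), and with the replicate block 4448 genes were higher and 4214 lower, against 4480 and 4255 without. Of the knockout libraries only replicate 3 correlated best with the control of its own number.

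Of 651 values of single genes under an alternative, 574 kept direction and call, 31 lost the call, 20 gained it and 26 turned direction, 1 of them from a call (Sqle, at -0.067 with the local median removed and without Bcat1-KO replicate 1). When 1 library was left out, log2 fold changes ranged from -0.21 to 0.028 for Pmvk, -0.057 to 0.27 for Mvd, -0.12 to 0.38 for Fdps, -0.45 to 0.068 for Fdft1, -0.11 to 0.21 for Msmo1, -0.044 to 0.20 for Ebp, -0.073 to 0.18 for Srebf2, -0.010 to 0.12 for Acaca and -0.12 to 0.071 for Fasn. With the local median removed and without Bcat1-KO replicate 1, Pmvk was at 0.16, Lss 0.17, Ebp -0.051 and Srebf2 -0.23. With the local median removed from all libraries the turned values were 0.35 for Pmvk, 0.25 for Fdft1, 0.33 for Lss, -0.11 for Srebf2 and -0.032 for Acaca. Fasn was also at 0.019 with each use of TPM, 0.030 with a gene length offset, and 0.022 with that and the replicate block. With a gene length offset Acaca passed as higher, at 0.19. The cause of these differences was not tested.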
